A study of Rattus norvegicus with 6 samples.

Results

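The genes described here are 31 genes of autophagy, of the lysosome and of the Tfe3/Tfeb transcription factors that govern them, measured in astrocytes cultured from the spinal cord of rats. They were chosen by name. Each gene was read by its probe set with the highest mean log2 signal over the 6 arrays, and Tfe3 by all of its probe sets. Of the 31 genes, 28 had a probe set annotated with that gene alone, and 27 were bright enough to be tested, of 10473 genes tested in all. Ctss, the gene of cathepsin S, had a probe set with a mean signal at or below the filter of 66.7. Map1lc3b and Gabarapl2 were read only by probe sets that carry several gene symbols, so no value is given for them, and Npc1 was not analysed here.

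The 6 Rat Genome 230 2.0 arrays formed 2 groups of 3: cultures from rats transgenic for human superoxide dismutase 1 with the ALS-linked G93A substitution (hSOD1G93A in the labels, SOD1-G93A below) and nontransgenic cultures (NonTG). Both groups were confluent monolayers that spent 24 hours in supplemented L15 medium before RNA was taken, and 5 ug of total RNA went into each array. Each group has arrays lettered A, B and C. The labels used here name neither the animals' age, nor the copy number or promoter of the transgene, nor whether a letter is a separate culture, so the p-values reflect how far these arrays vary, and that variation may be technical.

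Signals are MAS5 intensities made by the authors, on a linear scale with a common scaling of all arrays. The median signal per array lay between 129.88 and 136.28 in SOD1-G93A and between 128.85 and 135.28 in NonTG. Each difference is the mean log2 signal of SOD1-G93A less that of NonTG, tested in limma across 18625 probe sets with Benjamini-Hochberg adjustment at a threshold of 0.05. A signal depends on the probe set as well as on the transcript, so signals of different genes are not compared. Of the 11 astrocyte markers with a probe set, 10 were above the filter. The brightest was Fabp7, a glial fatty acid binding protein, at a mean log2 signal of 14.38 in SOD1-G93A and 14.47 in NonTG. Aqp4, a water channel, was at 14.04 and 13.92, and Gja1, a gap junction protein, at 14.01 and 13.96. Slc1a2, a glutamate transporter, was dim, with signals from 79.49 to 143.3. It was higher in SOD1-G93A by 0.47 (SE 0.23), the only 1 of the 10 without overlap, beside 7.52% of all genes. Of 17 markers of microglia and macrophages, cells rich in lysosomes, only 4 were above the filter, and those below it included Aif1, Itgam, Cx3cr1 and Csf1r. The brightest were Cd14 at 9.29 and 9.57, Laptm5 at 6.96 and 7.15 and Fcer1g at 6.50 and 6.36. All 10 fibroblast and meningeal markers were above the filter. The brightest were Col1a2 at 14.32 and 14.45, Col3a1 at 13.58 and 13.80 and Fn1 at 13.41 and 13.60. Of 8 neuron markers 7 were above it. The brightest of these were Stmn2 at 10.99 and 10.80, Map2 at 10.78 and 10.66 and Nefm at 8.143 and 8.355. Of the 7, 4 were higher and 3 lower in SOD1-G93A. Groups did not overlap for 1, Map2, beside 7.52% of all genes. Some markers of other cells differed by genotype. Of the 10 fibroblast and meningeal markers tested, 4 were higher and 6 lower in SOD1-G93A, with a median difference of -0.15. Dcn and Aldh1a2 were higher by 2.52 (SE 0.32) and 1.15 (SE 0.23), while Col1a1, Col1a2, Col3a1, Postn, Fn1 and Igf2 were lower, between -0.57 for Igf2 and -0.12 for Col1a2. In limma an unadjusted p below 0.05 was found for 2 of the 10, beside 2.64% of all genes. With the letter as a replicate block it was found for 8 of the 10, beside 6.39% of all genes. Of the 5 oligodendrocyte markers tested 4 were higher. They were Mbp by 0.78 (SE 0.46), Mag by 0.63 (SE 0.27), Ugt8 by 0.72 (SE 0.27) and Olig1 by 0.13 (SE 0.15). Cnp went the other way, at -0.18 (SE 0.10). Mag and Ugt8 were dim, with signals from 58.25 to 196.6. The count below 0.05 was 2, Mag and Ugt8, beside 2.64% of all genes. With the block it was 4, Mbp, Mag, Ugt8 and the lower Cnp, beside 6.39% of all genes. These genes were chosen after their values were seen, 0 passed limma's adjusted threshold in either fit, and their part in the results was not tested. In RNA from whole cultures, fewer cells of a type and less RNA per cell cannot be told apart.

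Autophagy encloses cytoplasm in a double membrane, the autophagosome, which fuses with the lysosome, where acid hydrolases break its content down. Ulk1 and Becn1 act at the start, the Atg conjugation enzymes attach ubiquitin-like proteins of the LC3 and GABARAP families to the growing membrane, and the vacuolar ATPase keeps the lysosome acid. Tfeb, Tfe3 and Mitf are related basic helix-loop-helix leucine zipper factors. They are held in the cytoplasm while the kinase mTORC1 is active on the lysosome and enter the nucleus on starvation or lysosomal stress. There they bind E-boxes of the CLEAR element in promoters of lysosomal and autophagy genes. Degradation of misfolded SOD1 by autophagy is one reason why the pathway is studied in ALS.

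The promoters of the members were searched for the known binding site of these factors. RefSeq promoters (GRCr8, 250 bases before to 50 after each gene's start) were matched for 26 of the 31 genes. The E-box CACGTG, which reads the same on both strands, was found in 6 of the 26 (23.1%) and in 6.42% of all 33469 rat promoters in the table. Its extended form TCACGTGA, also its own reverse complement and always holding a CACGTG, was found in 4 of the 26 (15.4%) and in 0.777% of all. The full CLEAR palindrome, which adds a G before and a C after it, was found in 0 of the 26 and in 0.233% of all. The 4 promoters with TCACGTGA are those of Ctsd (cathepsin D, an aspartic protease), Lamp1 (a glycoprotein of the lysosomal membrane), Atg3 (the enzyme that joins LC3 to lipid) and Atp6v0d1 (a subunit of the membrane sector of the vacuolar ATPase). They are printed because they carry the factors' known recognition sequence, with TCACGTGA in capitals. All 4 genes lie on the minus strand, at chr1:206968772-206969071, chr16:83075014-83075313, chr11:69159231-69159530 and chr19:50357199-50357498.
Ctsd: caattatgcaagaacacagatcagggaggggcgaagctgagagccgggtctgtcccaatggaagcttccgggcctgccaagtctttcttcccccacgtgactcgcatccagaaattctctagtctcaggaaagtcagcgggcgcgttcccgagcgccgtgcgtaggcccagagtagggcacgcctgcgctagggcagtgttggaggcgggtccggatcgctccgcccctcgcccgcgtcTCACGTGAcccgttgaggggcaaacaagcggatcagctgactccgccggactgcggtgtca
Lamp1: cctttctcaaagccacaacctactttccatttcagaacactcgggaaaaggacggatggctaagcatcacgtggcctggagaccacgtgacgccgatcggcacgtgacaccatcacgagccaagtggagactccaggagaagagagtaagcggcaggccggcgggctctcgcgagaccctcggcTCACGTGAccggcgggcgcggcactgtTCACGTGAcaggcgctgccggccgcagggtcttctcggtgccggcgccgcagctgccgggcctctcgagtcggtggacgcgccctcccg
Atg3: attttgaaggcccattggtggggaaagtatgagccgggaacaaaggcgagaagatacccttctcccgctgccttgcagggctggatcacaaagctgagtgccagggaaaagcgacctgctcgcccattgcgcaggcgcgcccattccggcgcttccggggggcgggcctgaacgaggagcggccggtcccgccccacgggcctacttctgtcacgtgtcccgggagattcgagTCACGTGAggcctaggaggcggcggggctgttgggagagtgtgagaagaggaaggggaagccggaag
Atp6v0d1: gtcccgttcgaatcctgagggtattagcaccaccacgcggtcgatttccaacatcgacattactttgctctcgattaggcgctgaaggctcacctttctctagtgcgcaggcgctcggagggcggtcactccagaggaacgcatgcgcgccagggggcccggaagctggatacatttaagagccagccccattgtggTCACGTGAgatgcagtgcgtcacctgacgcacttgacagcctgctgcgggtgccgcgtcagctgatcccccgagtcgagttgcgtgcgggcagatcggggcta
The first base of the match lies at -11 in Ctsd, -66 and -39 in Lamp1, -17 in Atg3 and -53 in Atp6v0d1, counted from the gene start. Lamp1 holds 5 CACGTG in all, Ctsd and Atg3 2 each, and Gaa and Atg5 a single one without the extension. The Tfe3, Tfeb and Mitf promoters hold none in this window. A match describes letters only and does not show binding.

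Among the 27 genes tested, Tfe3 stood apart in its difference between genotypes. The other 26 differed by less than 0.2 in either direction, as did 79.6% of all genes tested. In limma 0 of the 27 passed the adjusted threshold, as did 0% of all genes, and 1 of 27, Tfe3, had an unadjusted p below 0.05, against 2.64% of all genes (1.29% with a lower signal in SOD1-G93A). The median difference over the 27 was -0.019, with 11 higher and 16 lower, beside 0.0030 over all genes tested. The groups did not overlap for 2 of 27, Tfe3 (lower) and Ulk1 (higher), against 7.52% of all genes (3.79% lower and 3.73% higher). With the letter as a replicate block the call count was again 0, and Ctsl joined Tfe3 below an unadjusted p of 0.05, so that 2 of 27 had one, against 6.39% of all genes.

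**Figure D1:**
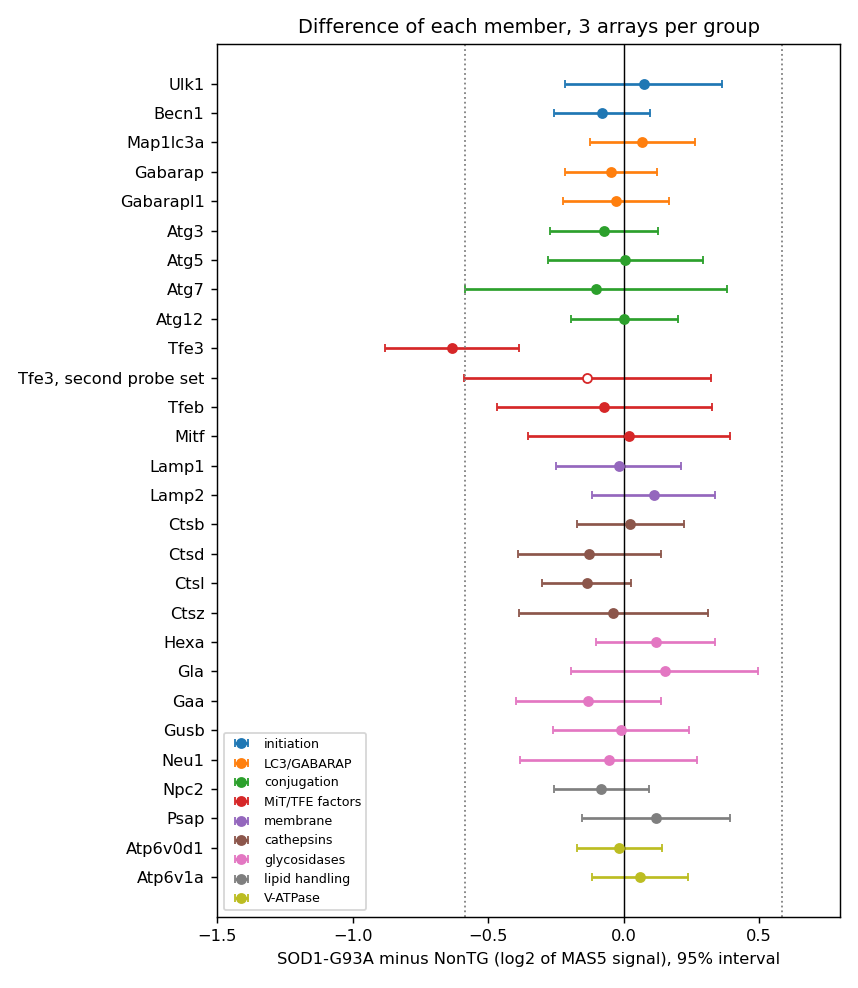
Difference of each tested member, SOD1-G93A minus NonTG in log2 signal (horizontal axis), with its 95% interval from limma, 3 arrays per group; colours mark roles, the open circle is the second Tfe3 probe set and dotted lines mark a 1.5-fold change. The brightest Tfe3 probe set lies at -0.63 with an interval from -0.88 to -0.38, and all other intervals span 0.

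Tfe3 encodes the MiT/TFE factor that shares its target sites with Tfeb. Its brightest probe set (1388967_at) had signals of 747, 847 and 852 on SOD1-G93A arrays A, B and C, against 1198, 1412 and 1187 on the NonTG arrays. Every SOD1-G93A signal lay below every NonTG signal. Mean log2 signals were 9.67 ± 0.11 in SOD1-G93A and 10.30 ± 0.14 in NonTG (SD, n = 3 each), a difference of -0.63 (SE 0.11, 95% interval -0.88 to -0.38), or a ratio of 0.645. For arrays of the same letter the difference was -0.68, -0.74 and -0.48 in A, B and C, lower in 3 of 3. The unadjusted p was 0.000249, rank 2 of 10473 genes, and limma's adjusted p was 0.9997, or 0.2008 with the letter as a replicate block. Tfe3 was placed on the list with this difference known, so its rank is a description.

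The second tested Tfe3 probe set (1389985_at) did not show the same separation. Its signals were 196, 280.0 and 219 in SOD1-G93A, against 204, 295 and 264 in NonTG, and the groups overlapped. The difference was -0.13 (SE 0.20, 95% interval -0.59 to 0.32), and -0.057, -0.076 and -0.27 within the letters. The gap between the 2 probe sets on an array, the log2 signal of the first minus that of the second, was 1.83 ± 0.20 in SOD1-G93A and 2.33 ± 0.20 in NonTG (SD, n = 3 each). The gap differed by -0.50 with no overlap, and the exact permutation p, two-sided, was 0.1, the smallest that 3 arrays against 3 allow. The difference of the first probe set was known beforehand and enters the gap, so the gap is a description. Another Tfe3 probe set (1378919_at) lay under the filter, with signals of 2.68, 9.05 and 2.24 in SOD1-G93A and 20.2, 16.1 and 3.00 in NonTG. With both tested probe sets averaged, the Tfe3 difference was -0.38 (limma's adjusted p = 0.9997). Which transcripts each probe set reads was not tested.

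**Figure D2:**
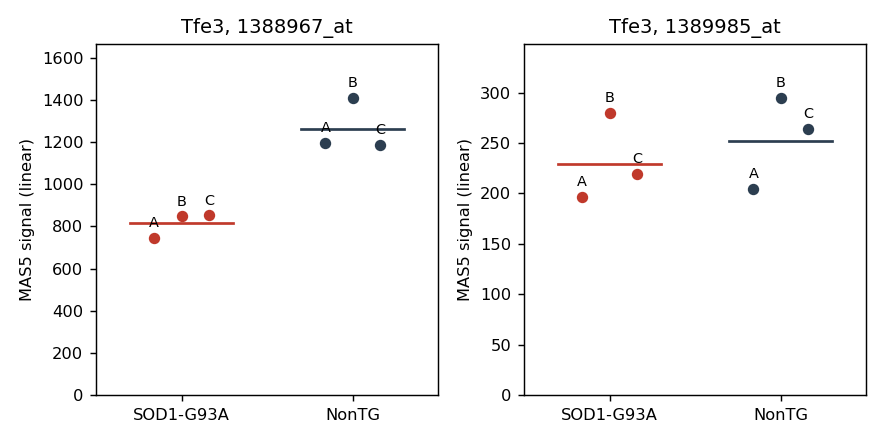
MAS5 signals (linear, vertical axis) of the 2 tested Tfe3 probe sets on each array, SOD1-G93A left and NonTG right; letters name the arrays and lines are means taken on the log2 scale. In the left panel the SOD1-G93A signals of 747 to 852 lie below the NonTG signals of 1187 to 1412, and in the right panel the groups overlap.

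The other MiT/TFE factors had differences near 0. Tfeb, the best known regulator of lysosome formation, had signals of 204.7, 276.2 and 265.6 in SOD1-G93A, against 229.4, 284.0 and 267.1 in NonTG. The groups overlapped, and the difference was -0.071 (SE 0.18, 95% interval -0.47 to 0.32). Mitf, known for melanocytes and osteoclasts, had 355.5, 501.7 and 467.7 in SOD1-G93A and 373.0, 479.0 and 448.3 in NonTG. Its difference was 0.020 (SE 0.17, 95% interval -0.35 to 0.39), with array A the lowest in both genotypes. Tfec, the remaining factor of the family, differed by 0.048 (SE 0.14).

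For the genes that start autophagy the differences were close to or below their standard errors. Ulk1, the kinase that receives the mTORC1 signal, had signals of 322.4, 319.5 and 317.3 in SOD1-G93A, against 316.1, 288.7 and 307.4 in NonTG. Its groups did not overlap, but the lowest SOD1-G93A and the highest NonTG signal nearly met, and the difference of 0.073 was smaller than its SE of 0.13. A second Ulk1 probe set differed by -0.13 (SE 0.22). Becn1, a subunit of the lipid kinase complex that marks the site of the autophagosome, had 2579, 2408 and 2511 in SOD1-G93A and 2578, 2563 and 2792 in NonTG, a difference of -0.081 (SE 0.078, 95% interval -0.26 to 0.096).

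The ubiquitin-like proteins that coat the autophagosome had standard errors below the median of the members. Map1lc3a, an LC3 protein, had signals of 2473, 2321 and 2308 in SOD1-G93A, against 2083, 2272 and 2424 in NonTG, a difference of 0.069 (SE 0.086). Gabarap, which acts in late steps of autophagosome formation, had 7800, 8234 and 7853 in SOD1-G93A and 7543, 8725 and 8437 in NonTG, a difference of -0.046 (SE 0.076). Gabarapl1, a close relative, differed by -0.028 (SE 0.086). The genotypes overlapped for all 3, and the intervals of the 3 genes lay between -0.22 and 0.26.

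The conjugation enzymes did not differ beyond the spread between arrays either. Atg3 had 2562, 2324 and 2751 in SOD1-G93A, against 2558, 2670 and 2792 in NonTG, a difference of -0.073 (SE 0.088). Atg12, a ubiquitin-like protein that is joined to Atg5, differed by 0.0026 (SE 0.088), and Atg5 by 0.0060 (SE 0.13). Atg7, the enzyme that activates both conjugation systems, was the least precise member. Its signals were 153.3, 242.8 and 235.0 in SOD1-G93A and 241.2, 229.3 and 195.4 in NonTG, so that a single low array, SOD1-G93A A, set its difference of -0.10 (SE 0.21, 95% interval -0.58 to 0.38). Without that array the difference was 0.11.

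Lysosomal membrane proteins, transporters and pump subunits overlapped between genotypes. Lamp1 had signals of 7105, 8797 and 8644 in SOD1-G93A, against 7470, 8374 and 8978 in NonTG, a difference of -0.019 (SE 0.10). Lamp2, the related protein that serves as receptor in chaperone-mediated autophagy, had 5747, 7186 and 7157 in SOD1-G93A and 5863, 6668 and 6012 in NonTG, a difference of 0.11 (SE 0.10). In both genes array A was the lowest of each genotype. Atp6v0d1, whose promoter is printed above, and Atp6v1a, the catalytic subunit of the pump, differed by -0.017 (SE 0.069) and 0.060 (SE 0.079), with 95% intervals from -0.17 to 0.14 and from -0.12 to 0.24. Npc2, which hands cholesterol to the lysosomal membrane, differed by -0.082 (SE 0.077), and Psap, the precursor of the saposins that assist sphingolipid breakdown, by 0.12 (SE 0.12).

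Of the 4 tested cathepsins, the lysosomal proteases, Ctsl had the largest difference. Its brightest probe set (1370244_at) had 11330, 10521 and 11620 in SOD1-G93A, against 11518, 12342 and 12960 in NonTG, a difference of -0.14 (SE 0.073, 95% interval -0.30 to 0.027). A second one (1370245_at) had 2220, 1696 and 1849 in SOD1-G93A and 2160, 2617 and 2706 in NonTG, a difference of -0.38 (SE 0.12, 95% interval -0.66 to -0.098). The groups overlapped in both. Within A, B and C the second probe set differed by 0.039, -0.63 and -0.55. Its unadjusted p was 0.0136 and limma's adjusted p 0.9997.

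The remaining cathepsins overlapped between genotypes. Ctsd had 5576, 6986 and 6491 in SOD1-G93A, against 5884, 7378 and 7573 in NonTG, lower in 3 of 3 letters, with a difference of -0.13 (SE 0.12, 95% interval -0.39 to 0.14). Ctsb, a cysteine protease, differed by 0.024 (SE 0.087) and Ctsz, a carboxypeptidase, by -0.038 (SE 0.16). Ctss, a protease typical of antigen-presenting cells, was close to the filter of 66.7, with signals of 85.1, 63.4 and 71.5 in SOD1-G93A and 38.8, 39.2 and 67.4 in NonTG, and was not tested.

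The glycosidases, which remove sugars from glycolipids and glycoproteins, ranged from -0.13 for Gaa (SE 0.12), the acid glucosidase that breaks down glycogen, to 0.15 for Gla (SE 0.15), the galactosidase of globosides. Hexa, a hexosaminidase subunit for gangliosides, had 2952, 3542 and 3612 in SOD1-G93A, against 2957, 3304 and 3024 in NonTG, a difference of 0.12 (SE 0.097). Gusb, a glucuronidase, differed by -0.0099 (SE 0.11) and Neu1, a sialidase, by -0.056 (SE 0.14). Groups overlapped in all 5.

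The members were measured with a smaller error than the median gene. The median SE of the 27 was 0.10, against 0.14 over all genes tested, and 26 of 27 had a 95% interval that stayed inside a 1.5-fold change either way, against 70.8% of all genes. Tfe3 was the exception, and Atg7 was just inside the bound at -0.58. The intensity trend of the fit lets the error depend on signal. The members were not compared with genes of like signal, so the smaller error is not shown to be particular to them. The 4 genes with TCACGTGA in their promoters, whose letters are shown above, differed by -0.13 (Ctsd), -0.019 (Lamp1), -0.073 (Atg3) and -0.017 (Atp6v0d1). Over the members and the other pathway genes described below, 18 with the motif had a median difference of -0.0033, and 105 without any CACGTG one of -0.017. Without SOD1-G93A A the median over the 27 members was 0.032, and 4 genes had an unadjusted p below 0.05: Tfe3 with a difference of -0.57, and Lamp2, Hexa and Psap at 0.22, 0.21 and 0.24. Without NonTG A there were 3, Tfe3 at -0.67, Ctsd at -0.24 and Ctsl at -0.18. In both cases 0 passed after adjustment in limma. The share of all genes below 0.05 in these fits is not given, so the counts cannot be called many or few. Leaving out an array lettered A makes the letters unbalanced between genotypes. Array A was the lowest of both genotypes for Lamp2, Hexa, Psap and Ctsd, so these differences mix genotype with letter.

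Many lysosomal genes were low on the arrays lettered A in both genotypes. For 24 of the 27 members, 88.9%, the array lettered A lay below the mean of B and C when both genotypes are averaged, against 51.5% of all genes tested. Array A was the lowest array of both genotypes for 15 of 27, against 18% of all genes, and these comprised 10 of the 15 lysosomal members and 3 of the 9 autophagy members. Outside the members the share was 26.6% of the 139 further pathway genes tested. By list it ran from 15.4% for conjugation and receptors to 66.7%, or 8 of 12, for the lysosomal proteases. Other lysosomal hydrolases had 35%, lysosomal membrane proteins 28.6% and the vacuolar ATPase 23.5%. Among tested markers it was 5 of 10 for astrocytes, 3 of 4 for microglia and 1 of 10 for fibroblasts. For neurons it was 1 of 7 and for oligodendrocytes 2 of 5. Ctsd was the clearest: array A against the mean of B and C differed by -0.27 in SOD1-G93A and -0.35 in NonTG. Psap, with 8573, 11784 and 10402 in SOD1-G93A and 8653, 10575 and 8984 in NonTG, differed by -0.37 and -0.17. Lamp1 differed by -0.30 and -0.215, Mitf by -0.45 and -0.31, and Gla by -0.25 and -0.47.

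**Figure D3:**
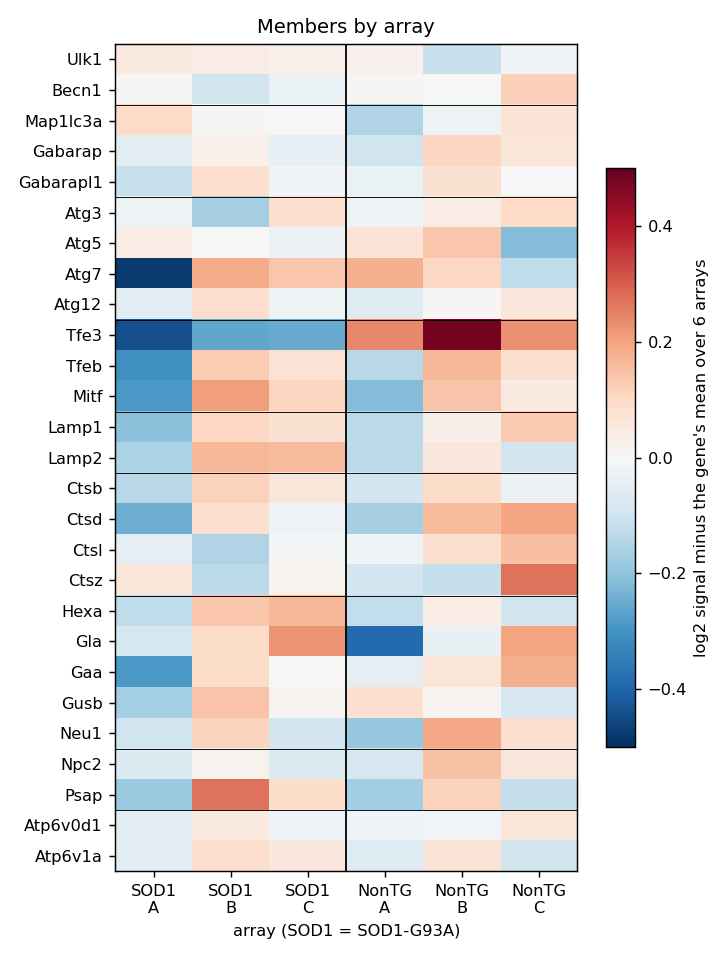
Log2 signal of each tested member on each array minus the gene's mean over the 6 arrays (colour, red above and blue below), SOD1-G93A arrays left of NonTG arrays, with lines between roles. The columns lettered A are blue for most lysosomal rows in both genotypes, and the Tfe3 row is blue on all SOD1-G93A arrays and red on all NonTG arrays.

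A test of letter A against B and C, with genotype in the model, was chosen after these values were seen. In limma 0 of the 27 passed after adjustment, where 1.24% of all genes did, and 9 of 27 had an unadjusted p below 0.05, all lower under A, where 16.8% of all genes had one and 8.45% had one and were lower. The 9 were Mitf, Lamp1, Lamp2, Ctsb, Ctsd, Hexa, Gla, Gaa and Psap. The smallest adjusted p was 0.0574, for Ctsd (-0.31, SE 0.064), and with arrays left out it passed without SOD1-G93A C (0.0119) and without NonTG B (0.0486), while Psap passed without NonTG A (0.0252) and without NonTG C (0.0146). Without NonTG A the letter A is a single array, assumed to vary like the others. Other genes moved with the letter as well. The summed signal of the 11 astrocyte markers was 97991 on array A against 116439 and 112204 on B and C in SOD1-G93A, and 104229 against 117693 and 106652 in NonTG. Among them Aldoc, a glycolytic enzyme, and S100b, a calcium-binding protein, were lower under A by limma's adjusted threshold, at -0.33 (SE 0.055, adjusted p = 0.0277) and -0.29 (SE 0.054, adjusted p = 0.0421). Of the 10 astrocyte markers tested, 4 had an unadjusted p below 0.05 for the letter in limma, 3 lower under A and Glul higher, by 0.22 (SE 0.074). The summed signal of the 17 microglia and macrophage markers was 1298 on array A against 1404 and 1333 on B and C in SOD1-G93A, and 1068 against 1597 and 1769 in NonTG, with none of the 17 at 0. Cd14 contributed the most on each array, and its own signal was highest on A in SOD1-G93A and lowest on A in NonTG. That of the 10 fibroblast and meningeal markers was 76277 against 54295 and 66856 in SOD1-G93A, and 76721 against 72232 and 72420 in NonTG. Fn1 and Col3a1 were higher under A by limma's adjusted threshold, at 0.45 (SE 0.066, adjusted p = 0.0156) and 0.55 (SE 0.090, adjusted p = 0.0253). The part of all these markers in the pattern was not tested, and the labels do not say what a letter stands for.

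**Figure D4:**
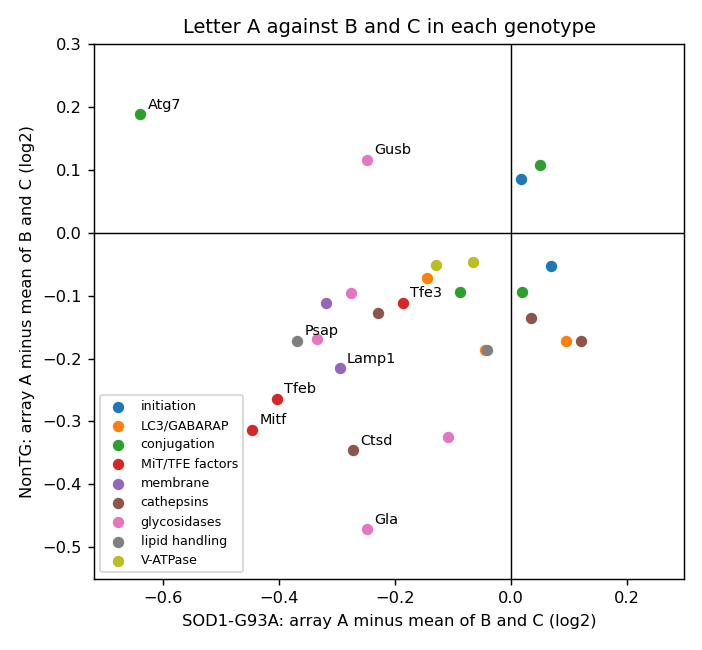
Log2 difference of array A from the mean of arrays B and C in SOD1-G93A (horizontal axis) and in NonTG (vertical axis), a point per tested member coloured by role. Ctsd, Lamp1, Psap, Gla, Tfeb, Mitf and Tfe3 lie below 0 on both axes, and Atg7 and Gusb below 0 in SOD1-G93A but above 0 in NonTG.

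Beyond the members, 152 other genes of the pathway were listed, of which 139 were tested. In limma 0 of the 139 passed after adjustment, 4 had an unadjusted p below 0.05 (2.64% of all genes had one), and the groups did not overlap for 14 (7.52% of all genes), 5 higher and 9 lower in SOD1-G93A. The median difference was -0.0050, with 68 higher and 71 lower. With the letter as a replicate block 0 passed after adjustment and 5 had an unadjusted p below 0.05 (6.39% of all genes had one). Without SOD1-G93A B none of the 139 had an unadjusted p below 0.05, without SOD1-G93A C there was 1 and without NonTG C there were 2. The shares of all genes with an array left out are not given. Medians of the separate lists lay between -0.078 for the vacuolar ATPase and 0.033 for lysosomal proteases.

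Subunits of the vacuolar ATPase lay on both sides, 6 of the 17 tested higher and 11 lower in SOD1-G93A. The groups did not overlap for 4 of 17, 2 higher and 2 lower, beside 7.52% of all genes. The 4 were Atp6v0a1, Atp6v0a2, Tcirg1 and Atp6v1e1, the last at -0.11 (SE 0.072). Atp6v0a1, a membrane subunit common in neural cells, had signals of 287.1, 353.9 and 311.2 in SOD1-G93A, against 263.0, 210.6 and 245.8 in NonTG, a difference of 0.41 (SE 0.16). Atp6v0a2, the form of the same subunit in the Golgi and endosomes, had 687.5, 665.4 and 650.0 in SOD1-G93A and 516.4, 547.1 and 608.2 in NonTG, a difference of 0.26 (SE 0.11). Neither showed any overlap between genotypes. Tcirg1, the form best known from osteoclasts, differed by -0.24 (SE 0.12), likewise without overlap, and Atp6v1h, a regulatory subunit, by -0.20 (SE 0.12). In limma the unadjusted p-values of Atp6v0a1, Atp6v0a2, Tcirg1 and Atp6v1h were 0.0302, 0.0407, 0.0755 and 0.109, and the adjusted p was 0.9997 for each.

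Mcoln1, the lysosomal calcium channel whose current activates calcineurin, had signals of 637, 639 and 662 in SOD1-G93A, against 895, 748 and 738 in NonTG. The groups did not overlap, and the difference was -0.29 (SE 0.11, 95% interval -0.55 to -0.038, unadjusted p = 0.0288 and adjusted p = 0.9997 in limma). Calcineurin removes the phosphates that hold Tfeb and Tfe3 in the cytoplasm. Its regulatory subunit gene Ppp3r1 had 1906, 1742 and 1867 in SOD1-G93A, against 2002, 2106 and 2119 in NonTG, a difference of -0.18 (SE 0.081). The catalytic subunit gene Ppp3ca had 2700, 2499 and 2665 in SOD1-G93A and 2914, 2979 and 2804 in NonTG, a difference of -0.15 (SE 0.076). The other catalytic subunit gene on the list, Ppp3cb, had 2068, 2065 and 1913 in SOD1-G93A and 2142, 1941 and 1896 in NonTG, a difference of 0.017 (SE 0.086) with overlap. Mcoln1, Ppp3r1 and Ppp3ca were lower with no overlap, as were 3.79% of all genes. In limma their unadjusted p-values were 0.0288, 0.0578 and 0.0864, with an adjusted p of 0.9997 each. They come from different lists and were named for the smallest p-values on the lower side, so their common direction follows from that choice. A joint change was not tested.

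In the list of mTORC1 and factor control, 0 of 25 had an unadjusted p below 0.05, or 1 (Ppp3r1, 0.0491) with the letter as a replicate block. The groups did not overlap for 4 of 25, where 7.52% of all genes did not overlap and 3.79% did not and were lower. All 4 were lower: Ppp3r1, Ppp3ca, Tsc1 (-0.16, SE 0.12), a brake on mTORC1, and Rraga (-0.061, SE 0.063), a GTPase that recruits mTORC1 to the lysosome. On the higher side were Rragd, a related GTPase and known target of the MiT/TFE factors, at 0.15 (SE 0.14), and Lamtor4, a part of its lysosomal anchor, at 0.093 (SE 0.090). Gpnmb, a glycoprotein that the MiT/TFE factors induce in other cell types, had 2190, 2263 and 2329 in SOD1-G93A, against 2246, 1643 and 1992 in NonTG, a difference of 0.22 (SE 0.12) with overlap. Mcoln1, which was lower, holds TCACGTGA in its promoter. Of the 18 members and further genes with that motif 9 were lower, with a median difference of -0.0033.

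**Figure D5:**
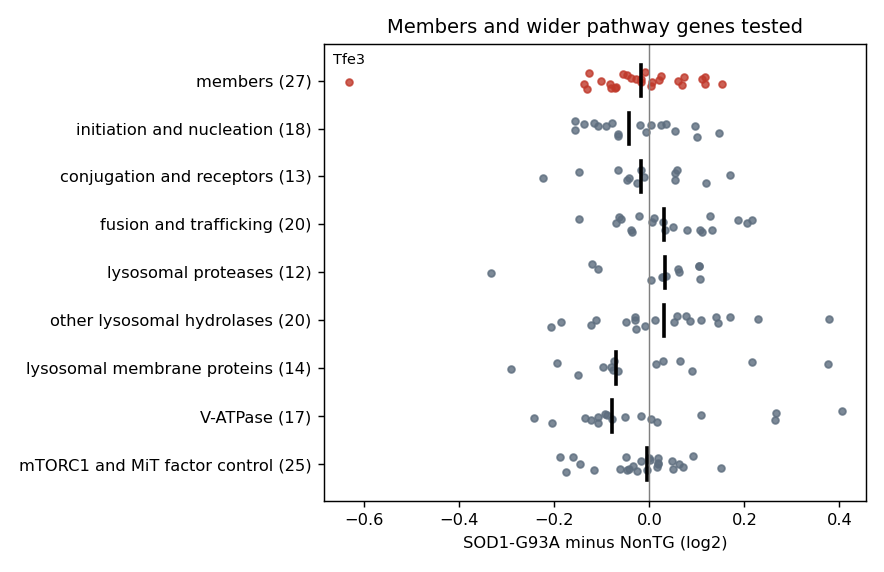
Difference of each tested gene, SOD1-G93A minus NonTG in log2 signal (horizontal axis), for the members and the 8 lists of other pathway genes (rows, number tested in brackets), with a bar at each median. All medians lie between -0.078 and 0.033, and Tfe3 at -0.63 is farther from 0 than any other gene shown.

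Among the other lists, lysosomal hydrolases had a median of 0.031 over 20 tested. Arsa, the arylsulfatase that degrades sulfatide, had 661, 801 and 734 in SOD1-G93A, against 559, 662 and 477 in NonTG, a difference of 0.38 (SE 0.14, unadjusted p = 0.0264 and adjusted p = 0.9997 in limma), with overlap at 661 and 662. Naglu, an enzyme of heparan sulfate breakdown, differed by 0.23 (SE 0.13) and Manba, a mannosidase, by -0.21 (SE 0.14), both without overlap, and Dnase2, the acid nuclease, by -0.19 (SE 0.17). Cln3, a lysosomal membrane protein lost in Batten disease, differed by 0.38 (SE 0.22), and Slc38a9, an amino acid sensor for mTORC1, by -0.19 (SE 0.18). Of the proteases and their inhibitors, Tpp1 (0.060, SE 0.087), Ctsf (0.11, SE 0.16), Cst3 (-0.11, SE 0.084) and Lgmn (-0.12, SE 0.097) were named as the smallest p on each side, and none had an unadjusted p below 0.05.

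The lists of the autophagy machinery gave 0 of 18, 0 of 13 and 0 of 20 genes with an unadjusted p below 0.05. Of initiation and nucleation, Atg9a, the lipid scramblase of the growing membrane, differed by 0.15 (SE 0.11) and Pik3r4, a subunit of the lipid kinase, by 0.096 (SE 0.095), while Vmp1 (-0.12, SE 0.11) and Bnip3 (-0.16, SE 0.15) lay on the other side. Of conjugation and receptors, Fundc1, a mitochondrial receptor for autophagy, was higher without overlap by 0.17 (SE 0.097). Tax1bp1, a cargo receptor, differed by 0.054 (SE 0.072), Atg16l1, a scaffold for LC3 conjugation, by -0.22 (SE 0.16), and Atg4a, an LC3 protease, by -0.15 (SE 0.13). Of fusion and trafficking, Vps33a, a part of the HOPS tether, was higher without overlap by 0.22 (SE 0.14), Gnptg, a subunit of the enzyme that starts the mannose 6-phosphate tag, differed by 0.11 (SE 0.11), and the receptors of that tag, M6pr and Igf2r, by -0.059 (SE 0.069) and -0.15 (SE 0.23). Igf2r also moved with the letter, array A lying 0.61 above B and C (SE 0.098, limma's adjusted p = 0.0240), opposite to Ctsh, a lysosomal protease that lay 0.37 below (a difference of -0.37, SE 0.061, adjusted p = 0.0276). Both were chosen after their values were seen.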

How the data were processed

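RNA from cultured astrocytes was hybridised to 6 Rat Genome 230 2.0 arrays, 3 per genotype. The deposited values are signal intensities. The authors made these intensities with the MAS5 algorithm (GCOS version 1.4), as recorded in the submitters' processing notes. They are linear and scaled to a trimmed mean near 500.2 on each array. The series' design text also names GC-RMA, which gives log values, and the file holds none. No aligner or genome build applies. The number of arrays, 3 per group, limits the precision.

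From the intensities, log2 signals were computed with no pseudocount and no further normalization. After leaving out 57 control probe sets, probe sets with a mean log2 signal above the 40th percentile (a signal of 66.7) were kept. limma 3.58.1 in R 4.3.3 (moderated test with an intensity trend, two-sided) compared SOD1-G93A with NonTG over 18625 probe sets. Gene symbols came from the platform annotation, with 20764 of 20826 probe sets of 1 symbol matched by Entrez ID and 0 symbols updated. The fit was tested on simulated data.

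Members and lists were chosen with earlier results of these data known. The text names all members and up to 2 genes with the smallest p in each direction of each further list. It also names the 3 brightest markers of the astrocyte, microglia, fibroblast and neuron lists. Other names lie outside this rule and were added after values were seen. Some are marked so where they appear. Those not marked there include Tfec, Ppp3cb, Tsc1, Rraga, Atp6v1e1, the dim microglia markers, Slc1a2, Aldoc, S100b and Glul. The letter results of Fn1 and Col3a1 were also chosen after values were seen. Deviations from the group means correlated at 0.30, 0.25 and 0.20 between arrays of the same letter and at -0.28 to 0.025 between different letters. Deviations sum to 0 within a group, so positive correlations between like letters bring negative ones between unlike letters. The main fit has no block, since the series' design text names none. SEs, intervals and limma p-values come from it unless the block or the letter test is named, and they include differences between letters. The fit with letter as a replicate block is given where it changes a count. Alternatives were quantile normalization, a pseudocount of 32, no filter or a stricter one (55th percentile), the block, array weights, no intensity trend, the mean over a gene's probe sets, and leaving out each array.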

Additional observations from a re-analysis of the deposited data

How the results depend on the processing

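In limma 0 members passed after adjustment in the main setting and in each of the 14 alternatives. Tfe3 was lower in all of them, between -0.68 and -0.38, with an adjusted p between 0.2008 and 1. With the letter as a replicate block, or with the mean over all tested probe sets of a gene, 2 members had an unadjusted p below 0.05 in place of 1. When 1 array was left out this count lay between 1 and 4, and the share of all genes is then not given. Members without overlap numbered 1 under quantile normalization and 3 to 6 with an array left out, where fewer arrays make overlap rarer. The count of further pathway genes with an unadjusted p below 0.05 lay between 0 and 5 with an array left out. Apart from the replicate block, shares of all genes in the alternatives are not given, here or for the letters. None of these counts can then be called many or few. For the letters, the count of members with an unadjusted p below 0.05 was 4 without the intensity trend, and with an array left out 0 to 1 members passed after adjustment.

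Small differences changed sign. Under quantile normalization Atg5 was -0.0036, Atg12 -0.0039, Lamp1 0.022 and Atp6v0d1 0.0088. With array weights Atg5 was -0.0054, Atg12 -0.014 and Gusb 0.0032. With the mean over probe sets Atg7 was 0.12, Ulk1 -0.030 and Mitf -0.046. With 1 array left out the ranges were -0.040 to 0.032 for Atg12, -0.10 to 0.077 for Atg5, -0.22 to 0.11 for Atg7, -0.047 to 0.0089 for Atp6v0d1, -0.027 to 0.10 for Ctsb, -0.11 to 0.089 for Ctsz and -0.078 to 0.020 for Gabarapl1. They were -0.0052 to 0.29 for Gla, -0.083 to 0.073 for Gusb, -0.090 to 0.080 for Lamp1, -0.085 to 0.17 for Mitf, -0.16 to 0.027 for Neu1 and -0.16 to 0.064 for Tfeb. The cause was not tested. With the replicate block 0 members and 0 further pathway genes passed after adjustment, as without it. The further pathway genes with an unadjusted p below 0.05 then numbered 5 in place of 4. Signals near the filter limit what can be said of Ctss and of the dim Tfe3 probe set.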

Other observations

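Of the 27 tested members, 14 had further probe sets above the filter, 16 in all. Their differences, SOD1-G93A minus NonTG, lay between -0.38 for Ctsl and 0.44 for Atg7 (SE 0.48), and 8 of the 16 had the same sign as the brightest probe set of their gene. A further 4 probe sets of these genes were at or below the filter and were not tested.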
